A study of Mus musculus with 9 samples.

Results

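Anillin, the scaffold protein of the contractile ring, and 9 other genes of cytokinesis were followed in the nuclear RNA of cardiomyocytes from 12-day-old mice. The 10 genes were Anln, Rhoa, Ect2, Racgap1, Kif23, Prc1, Kif20a, Aurkb, Incenp and Cit, and each was found by its symbol among the 41128 genes of the deposited table of normalized counts, which are reads per gene divided by the size factor of the library. All 10 reached a normalized count of 10 in at least 3 of the 9 libraries, and all 10 also did so in at least 3 of the 6 mice without cardiac stress. Anln was chosen by its own difference between stressed cKO mice, those with a score of 1, and controls, so the differences of all 10 genes in those mice are given as a description, with a standard error and no test. Binucleation itself was not measured in these libraries, since RNA from sorted nuclei does not tell how many nuclei a cell held.

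Left ventricles of FVB mice were snap frozen, and nuclei stained for PCM-1, a protein that surrounds cardiomyocyte nuclei, were sorted for RNA-seq. The libraries came from 3 cKO mice scored 1 for cardiac stress (S1 to S3), 3 unstressed cKO mice (U1 to U3) and 3 control mice (C1 to C3). All 6 cKO mice had the genotype Fstl1KO/fl;Tie2-Cre, with 1 knockout allele of Fstl1 in all cells and a floxed allele that Tie2-Cre deletes in the endothelial and endocardial lineage, so that cardiomyocytes themselves are not targeted. In the paper cKO mice develop left ventricular volume overload, and the score of the sequenced mice was set by the ratio of heart weight to body weight. Control mice are wildtype in the sample labels and carry a floxed allele according to the methods. Control mice were female and unstressed cKO mice male according to the paper, so genotype and sex cannot be told apart between these groups. The paper does not state the sex of the sequenced score 1 mice, so sex may differ in their comparisons too. U3 is named a heterozygous cKO in its title, although its genotype is entered like that of U1 and U2.

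A library held 10805513 to 12698502 reads in score 1 mice, 8804295 to 11341764 in the unstressed cKO group and 8262684 to 12597012 in control mice. S1 and S3 had the fewest genes with a read, 17140 and 16989, against 17756 to 19271 in the other libraries. Genes of the labelled cell type were abundant, and the 8 cardiomyocyte genes listed summed to a normalized count of 2275380 to 3790597 in score 1 mice, 2744559 to 2921249 in the unstressed cKO group and 2668122 to 3567976 in control mice. By the mouse numbers in their titles, S1, S2, U1 to U3 and C1 form series A and S3, C2 and C3 series B, with no statement on whether the series were processed together. From the same numbers, each library was counted as 1 mouse. Fstl1, the targeted gene, had a normalized count of 97.4, 145 and 123 in S1 to S3, against 69.6, 98.6 and 125 in U1 to U3 and 124, 102 and 95.04 in C1 to C3, with no separation of the groups.

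Cytokinesis begins at the spindle midzone, which PRC1 bundles and where the kinesin KIF20A also lies. The midzone gathers the chromosomal passenger complex with AURKB and INCENP and the centralspindlin complex of KIF23 and RACGAP1. Centralspindlin recruits ECT2, which loads the GTPase RHOA with GTP at the cell equator, and active RHOA starts the ring of actin and myosin that anillin ties to the membrane and to septins. Citron kinase, encoded by Cit, holds the midbody until the daughter cells part. In mouse hearts most cardiomyocytes go through a last cell cycle after birth in which the nucleus divides but the cell does not, and a faulty placement of anillin has been described in such cells.

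Anln was higher in every score 1 mouse than in any other mouse. Its normalized count was 655, 229 and 218 in S1 to S3, against 92.4 (U1), 94.4 (U2) and 77.2 (U3) in unstressed cKO mice and 112 (C1), 87.9 (C2) and 48.5 (C3) in control mice. The score 1 values thus did not overlap with those of either group, which was so in the same direction for 1.72% of the 13454 genes tested, and S1 stood far above S2 and S3. Means were 367 ± 249 in score 1 mice, 88.0 ± 9.42 in unstressed cKO mice and 82.9 ± 32.2 in control mice (SD, n = 3 each), so the mean in score 1 mice was 4.43 times that in control mice. The reads behind these values numbered 726, 268 and 233 in S1 to S3, 81 to 111 in the unstressed cKO group and 51 to 98 in control mice. In sorted nuclei a higher level may come from more nuclei that express a gene or from more RNA in each, and these cannot be told apart in bulk libraries. Anln (ENSMUSG00000036777.7) lies on the minus strand of chromosome 9 of mm10 from 22332012 to 22389188.

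On the scale of log2(normalized count + 1), which makes changes of genes with low counts look smaller than they are, the log2 fold change of Anln in score 1 mice was 2.02 against control mice (standard error 0.45). It was 1.86 against unstressed cKO mice and 1.94 against the 6 other mice. These comparisons share the score 1 mice and are not independent. Without S1 the log2 fold changes were 1.50, 1.34 and 1.42, and they stayed above 0 without any single library. Within series A, S1 and S2 lay on average 1.78 above C1 on the log2 scale, and within series B, S3 lay 1.72 above C2 and C3, each without a replicate check on one side.

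Control mice took part in the choice of Anln, and the paper also named the gene in score 1 mice against both other groups. The comparison of unstressed cKO with control mice is thus not independent of that choice. These groups had overlapping levels of Anln. The log2 fold change was 0.16 (standard error 0.45, 95% confidence interval -0.78 to 1.11, adjusted p = 0.99955 from limma). The value was -0.18 without C3, 0.42 without C1 and -0.37 with the series as a covariate. A level of Anln as in score 1 mice was not seen in the unstressed mice of the same genotype.

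**Figure D1:**
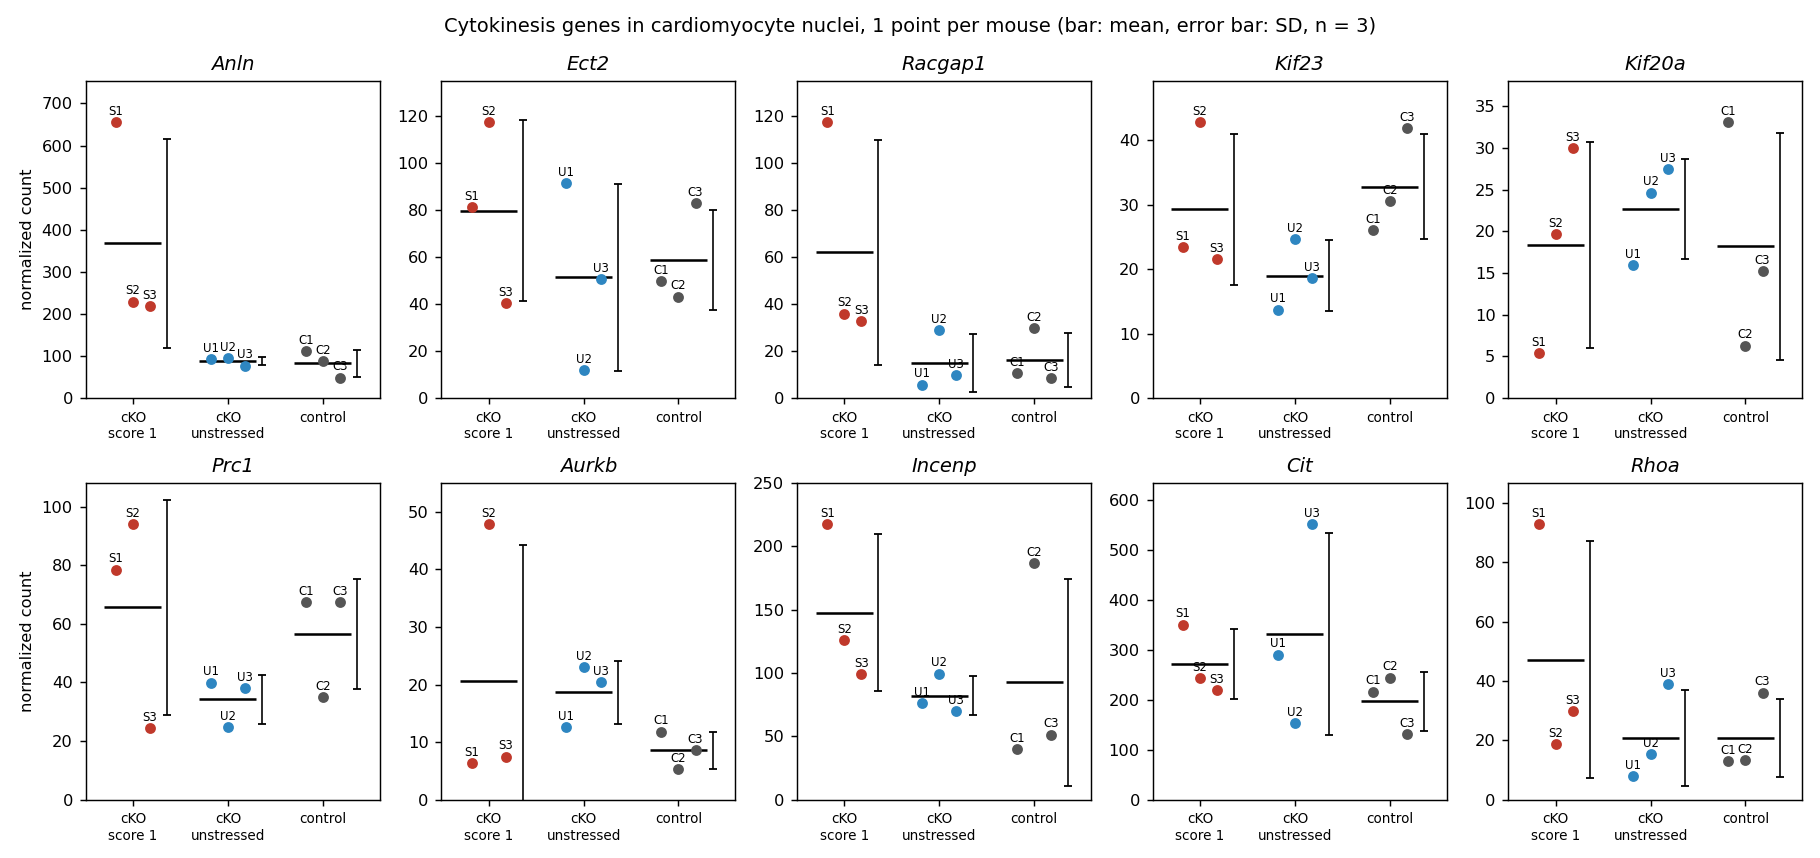
Normalized counts (vertical axes, from 0, a separate scale for each gene) of the 10 cytokinesis genes in cKO score 1, cKO unstressed and control mice, with 1 point per mouse, a bar at the mean and the SD beside it (n = 3, cut at 0 for Aurkb). Anln and Racgap1 lie higher in all 3 score 1 mice than in the 6 others, with S1 highest at 655 and 117, and the other 8 genes overlap between score 1 and control mice.

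Racgap1 had the pattern most like that of Anln among the 10 genes. RACGAP1 is the GTPase-activating subunit of centralspindlin and binds both ECT2 and anillin. Its normalized count was 117, 35.9 and 32.8 in S1 to S3, against 5.71, 28.9 and 9.76 in U1 to U3 and 10.6, 29.6 and 8.55 in C1 to C3. Every score 1 mouse was again above every other mouse, but S2 and S3 were above U2 and C2 by few reads, with 42 and 35 reads against 34 and 33. The means were 62.0 ± 47.9 in score 1 mice, 14.8 ± 12.4 in unstressed cKO mice and 16.3 ± 11.6 in control mice (SD, n = 3 each). The log2 fold change in score 1 mice was 1.81 against control mice (standard error 0.82) and 2.03 against unstressed cKO mice (standard error 0.82), and 1.23 and 1.45 without S1. Between unstressed cKO and control mice it was -0.22 (standard error 0.82, adjusted p = 0.99955 from limma). The gene (ENSMUSG00000023015.8) lies on the minus strand of chromosome 15 from 99620496 to 99651656.

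Kif23, the kinesin partner of RACGAP1 in centralspindlin, did not share this pattern. Its normalized count was 23.5, 42.7 and 21.5 in S1 to S3, against 13.7, 24.7 and 18.6 in U1 to U3 and 26.0, 30.5 and 41.8 in C1 to C3. Score 1 and control mice overlapped, whereas all 3 unstressed cKO mice were below all 3 control mice, as for 5.36% of the genes tested. The log2 fold change was -0.20 in score 1 mice against control mice (standard error 0.66) and -0.77 in unstressed cKO mice against control mice (standard error 0.66, adjusted p = 0.99955 from limma). The highest library, S2, held 3.12 times the level of the lowest, U1, the narrowest range of the 10 genes. Kif23 (ENSMUSG00000032254.9) lies on the minus strand of chromosome 9 from 61915905 to 61946774.

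The promoters of Anln, Racgap1 and Kif23 are shown because Anln and Racgap1 were higher in every score 1 mouse, while Kif23, whose protein forms a complex with that of Racgap1, was not. They were taken from RefSeq (GRCm38.p6, the assembly of mm10), each with 250 bases before and 50 bases after the gene start, on the minus strand at chr9:22389157-22389456, chr15:99651607-99651906 and chr9:61946750-61947049. Capitals mark the TTTGAA core of the cell cycle genes homology region, the CCAAT box, the E-box CACGTG, or the reverse complement of one of these.
Anln: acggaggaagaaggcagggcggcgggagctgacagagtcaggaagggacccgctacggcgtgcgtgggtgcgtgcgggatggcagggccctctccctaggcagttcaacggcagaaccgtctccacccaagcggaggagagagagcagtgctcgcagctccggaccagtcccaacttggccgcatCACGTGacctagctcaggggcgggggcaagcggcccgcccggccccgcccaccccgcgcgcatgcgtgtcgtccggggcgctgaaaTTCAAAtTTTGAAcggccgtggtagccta
Racgap1: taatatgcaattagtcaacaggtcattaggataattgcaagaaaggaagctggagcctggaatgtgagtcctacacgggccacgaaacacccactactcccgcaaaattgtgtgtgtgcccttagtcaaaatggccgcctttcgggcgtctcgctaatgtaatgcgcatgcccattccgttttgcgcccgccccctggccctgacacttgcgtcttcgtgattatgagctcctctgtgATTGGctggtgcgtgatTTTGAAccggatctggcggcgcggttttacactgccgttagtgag
Kif23: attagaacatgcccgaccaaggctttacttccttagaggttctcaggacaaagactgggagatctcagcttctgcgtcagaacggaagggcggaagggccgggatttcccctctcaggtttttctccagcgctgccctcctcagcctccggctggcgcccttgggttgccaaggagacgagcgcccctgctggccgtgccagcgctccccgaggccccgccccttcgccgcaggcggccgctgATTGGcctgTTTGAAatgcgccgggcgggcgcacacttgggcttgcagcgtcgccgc
In all 3 promoters a TTTGAA motif lies just after the gene start, at base 22 on the opposite strand and base 29 in Anln, at base 6 in Racgap1 and at base 3 in Kif23, counted from 1 at the start. Racgap1 and Kif23 also hold a CCAAT motif on the opposite strand, at -12 and -7, and Anln holds CACGTG at -65.

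Of the 10 genes, 7 were matched in the RefSeq promoters (Anln, Rhoa, Ect2, Racgap1, Kif23, Prc1 and Cit). Entries on chromosome 18, where Kif20a lies, were left out for the 10 genes but not for the 27025. Kif20a thus could not be among the 7. TTTGAA, the core of the cell cycle genes homology region found in promoters of genes of late cell cycle stages, was present on either strand in 5 of the 7, against 20.2% of the 27025 genes of the table, where a gene counts if any of its promoters of this length holds the motif. CCAAT, the motif of the factor NF-Y, was in 4 of the 7 (41.1% of the genes), CACGTG, an E-box, in 1 (8.09%), TTTAAA, the other core of the homology region, in 1, Rhoa (14.9%), and TTTCCCGC, an E2F motif, in 0 (1.24%). None of these motifs overlaps another by its letters in the printed sequences. Ect2, Kif23 and Prc1, which hold TTTGAA as Anln and Racgap1 do, had levels that overlapped between score 1 and control mice. Whether any of these motifs bears on the levels was not tested.

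Rhoa and Ect2, the switch of the contractile ring and the exchange factor that turns it on, overlapped between all groups. Rhoa was at 92.9, 18.8 and 30.0 in S1 to S3, against 7.99, 15.3 and 39.0 in U1 to U3 and 13.0, 13.5 and 36.1 in C1 to C3. S1 alone lay far above the other mice, with 103 reads against 7 to 44. The log2 fold change against control mice was 0.98 (standard error 0.80) in score 1 mice and 0.34 without S1, and -0.12 (standard error 0.80, adjusted p = 0.99955 from limma) in unstressed cKO mice. Rhoa (ENSMUSG00000007815.8, plus strand of chromosome 9, 108306129 to 108337934) shares 32 exon bases with Tcta and 324 with Gm37401 on the other strand, and no source used here states whether reads were counted by strand. Ect2 was at 81.2, 117 and 40.3 in S1 to S3, against 91.3, 11.9 and 50.6 in U1 to U3 and 49.6, 43.1 and 82.7 in C1 to C3. All 3 groups overlapped, and against control mice Ect2 differed by 0.37 on the log2 scale (standard error 0.66) in score 1 mice and by -0.53 (standard error 0.66, adjusted p = 0.99955 from limma) in unstressed cKO mice. Without U2, the lowest library, the value for unstressed cKO mice was 0.27. Ect2 (ENSMUSG00000027699.14) lies on the minus strand of chromosome 3 from 27097222 to 27153878.

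The genes of the spindle midzone, Prc1 and Kif20a, did not separate the groups. Prc1 was at 78.5, 94.0 and 24.4 in S1 to S3, against 39.9, 24.7 and 38.2 in U1 to U3 and 67.4, 35.0 and 67.5 in C1 to C3. S3 was the lowest library and S2 the highest, so the range in score 1 mice held all the others. Its log2 fold change against control mice was 0.06 (standard error 0.60) in score 1 mice and -0.68 (standard error 0.60, adjusted p = 0.99955 from limma) in unstressed cKO mice. With the series as a covariate the value for unstressed cKO mice was -1.42. Kif20a was at 5.41, 19.7 and 30.0 in S1 to S3, against 16.0, 24.7 and 27.5 in U1 to U3 and 33.1, 6.28 and 15.2 in C1 to C3. It was lowest in S1, the library in which Anln was highest, and rested on 6 to 32 reads per library. Its log2 fold change in score 1 mice against control mice was 0.01 (standard error 0.84), with -1.57 within series A and 1.51 within series B. Unstressed cKO mice differed from control mice by 0.54 on this scale (standard error 0.84, adjusted p = 0.99955 from limma).

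Both genes overlap a gene on the opposite strand. Prc1 (ENSMUSG00000038943.11, plus strand of chromosome 7, 80294450 to 80316259) shares 911 exon bases with Rccd1, which had a mean normalized count of 176. Kif20a (ENSMUSG00000003779.10, plus strand of chromosome 18, 34624613 to 34633277) shares 1271 of its 4338 exon bases with Cdc23, with a mean of 379, so reads of Cdc23 may be counted as Kif20a if strand was not used.

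Of the chromosomal passenger genes, Aurkb, the kinase, was low and Incenp, its scaffold, higher but unsteady in control mice. Aurkb was at 6.31, 47.9 and 7.49 in S1 to S3, against 12.6, 23.0 and 20.4 in U1 to U3 and 11.8, 5.38 and 8.55 in C1 to C3. S2 alone was high among score 1 mice, while all 3 unstressed cKO mice were above all 3 control mice, as for 5.19% of the genes tested. Against control mice the log2 fold change was 0.65 (standard error 0.90) in score 1 mice, -0.22 without S2, and 1.05 (standard error 0.90, adjusted p = 0.99955 from limma) in unstressed cKO mice. Incenp was at 217, 126 and 99.3 in S1 to S3, against 76.5, 99.5 and 70.1 in U1 to U3 and 40.2, 187 and 51.3 in C1 to C3. C2 lay within the range of score 1 mice and the other control mice below it. For Incenp the log2 fold change against control mice was 0.93 (standard error 0.53) in score 1 mice, with 2.01 within series A and 0.02 within series B, and 0.15 (standard error 0.53, adjusted p = 0.99955 from limma) in unstressed cKO mice. Aurkb (ENSMUSG00000020897.7) lies on the plus strand of chromosome 11 from 69045647 to 69051664 and Incenp (ENSMUSG00000024660.8) on the minus strand of chromosome 19 from 9872296 to 9899551.

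Cit was the only one of the 10 genes that was highest in an unstressed cKO mouse. It was at 350.0, 244 and 219 in S1 to S3, against 289.9, 154 and 551 in U1 to U3 and 216, 244 and 131 in C1 to C3. U3, the mouse with the heterozygous title, held 551, while U2 of the same group was close to the lowest control mouse. Its log2 fold change was 0.48 in score 1 mice against control mice (standard error 0.40) and -0.13 against unstressed cKO mice (standard error 0.40). In unstressed cKO mice it was 0.61 against control mice (standard error 0.40, adjusted p = 0.99955 from limma) and 0.15 without U3. Cit (ENSMUSG00000029516.14) spans 115845278 to 116008947 on the plus strand of chromosome 5, and its 16417 exon bases were the most of the 10 genes.

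**Figure D2:**
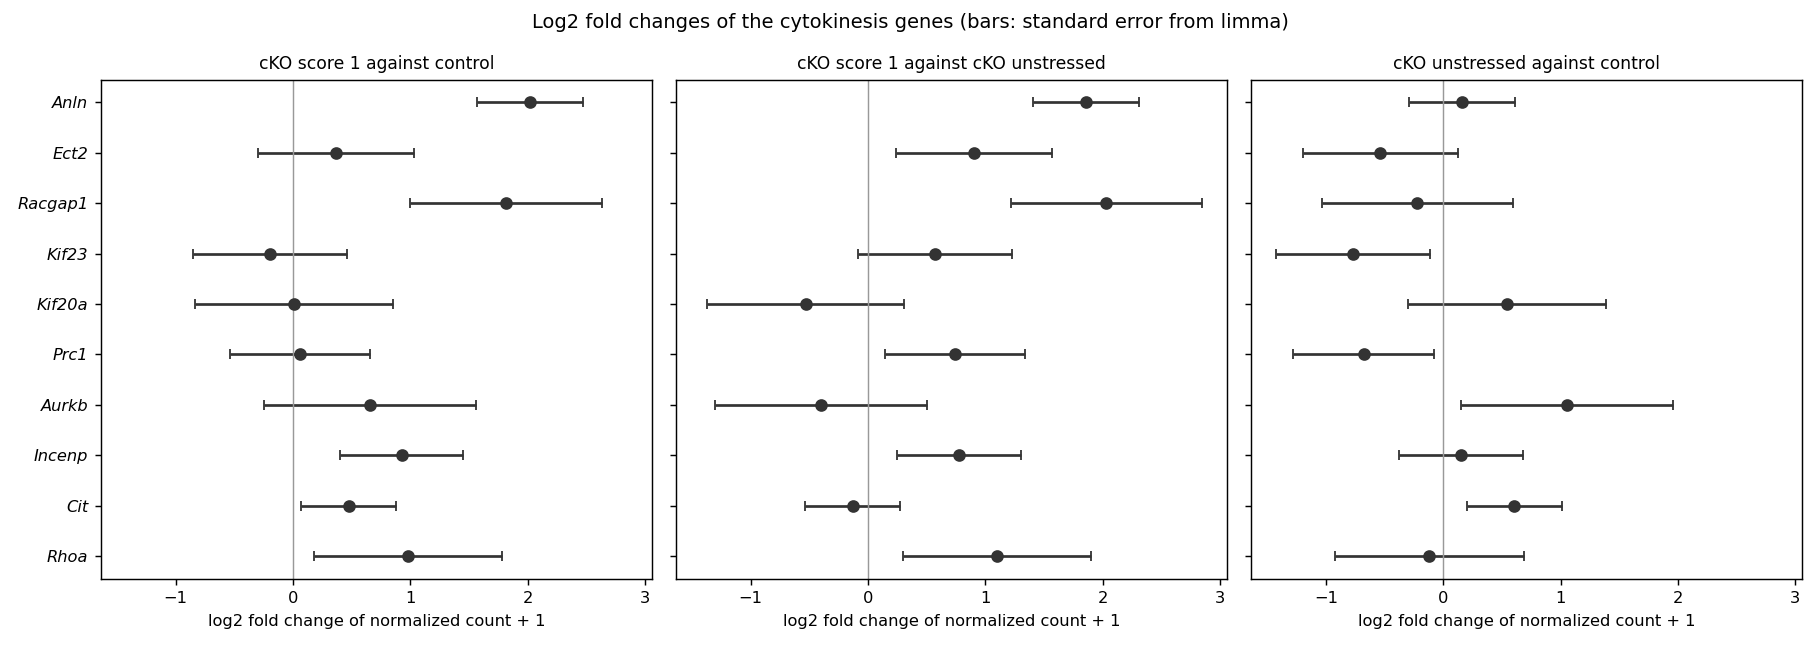
Log2 fold changes of normalized count + 1 (horizontal axes) for the 10 cytokinesis genes (rows) in 3 comparisons, with standard errors from limma as bars. Anln at 2.02 and Racgap1 at 1.81 stand right of the other genes in score 1 against control mice, and in unstressed cKO against control mice the 10 genes lie between -0.77 and 1.05.

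Called genes were few in all comparisons at an adjusted p of 0.05. Among 13454 genes tested, limma called 0% in score 1 against control mice, 0% in unstressed cKO against control mice, 0% in score 1 against unstressed cKO mice and 0.00743% (1 gene, Myc) in score 1 mice against the 6 others. At an unadjusted p under 0.05, limma had 1032 genes (7.67%) in score 1 against control mice and 561 (4.17%) in unstressed cKO against control mice. None of the 10 was among the 561. edgeR called 0, 0, 0 and 1 gene in the 4 comparisons. DESeq2, run on the recovered reads, called 29 genes (0.19%) in score 1 against control mice, 27 (0.178%) in score 1 against unstressed cKO mice and 58 (0.388%) in score 1 mice against the 6 others. Which cytokinesis genes were among the calls with score 1 mice is not given as a result, since Anln was chosen on those mice. DESeq2 called 9 genes (0.0599%) between unstressed cKO and control mice, none of them of the 10.

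A count of genes whose values did not overlap gives the background for the levels described above. All 3 score 1 mice were above all 3 control mice for 5.8% of the genes tested and for 2 of the 10 (Anln and Racgap1), and below them for 5.28% and 0 of the 10. Against unstressed cKO mice the same 2 genes were higher (5.31% of all genes) and 0 were lower (6.04%). Against all 6 other mice, 1.72% of all genes were higher in every score 1 mouse, with Anln and Racgap1, and 1.75% were lower, with none of the 10. Unstressed cKO mice were all above control mice for 5.19% of the genes and for 1 of the 10 (Aurkb), and all below for 5.36% and 1 of the 10 (Kif23). Nothing is read from the counts with score 1 mice, since Anln was chosen on them.

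The levels in score 1 mice rested on different libraries for different genes. S1 was the highest of all 9 libraries for Anln, Racgap1, Incenp and Rhoa, S2 for Ect2, Kif23, Prc1 and Aurkb, U3 for Cit and C1 for Kif20a. The summed normalized count of the 10 genes was 1627, 974 and 723 in S1 to S3, against 646, 501 and 902 in U1 to U3 and 580.2, 682 and 491 in C1 to C3. S3 was thus below U3 and close to C2. The median log2 fold change of the 10 genes was 0.56 in score 1 against control mice, with 9 of 10 above 0. Over all genes tested the median was -0.01, with 49.3% above 0. Of the 9, Kif20a (0.01, standard error 0.84) and Prc1 (0.06, standard error 0.60) lay near 0. With the series as a covariate these 2 were at -0.03 and -0.31 and the median of the 10 was 0.35. In unstressed cKO against control mice the median was 0.02, with 5 of 10 above 0, beside 0.01 and 51.0% for all genes. In score 1 against unstressed cKO mice it was 0.76, with 7 of 10 above 0, beside -0.01 and 48.8% for all genes.

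Levels divided by exon length allow the genes to be ordered within a group. In score 1 mice Anln came first with 40.5 ± 27.5 normalized counts per kilobase, followed by Incenp with 34.1 ± 14.3 and Cit with 16.5 ± 4.24 (SD, n = 3 each). The first place of Anln rested on S1, since Incenp was above Anln in S2 (29.0 against 25.3) and, in a mean without S1 chosen after seeing the data, at 26.0 against 24.7. In unstressed cKO mice Cit (20.2 ± 12.3) and Incenp (18.9 ± 3.57) preceded Anln (9.71 ± 1.04), and in control mice Incenp (21.4 ± 18.8), Cit (12.0 ± 3.58) and Ect2 (10.9 ± 3.94) preceded it (9.15 ± 3.55). Racgap1 was last in control mice at 2.30 ± 1.64. Neighbours in this order overlapped in 8 of 9 pairs in score 1 mice, in 8 of 9 in unstressed cKO mice and in 9 of 9 in control mice. The exceptions were Incenp above Cit in score 1 mice and Incenp above Anln in unstressed cKO mice.

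The genes whose pattern over the 9 libraries was most like that of Anln were not cytokinesis genes. By Pearson's r on log2(normalized count + 1) over all genes tested, they were Csnk1g1, a casein kinase gene (r = 0.97), D15Ertd621e (0.96), Eif2ak1, the kinase of eIF2 that responds to heme (0.96), Zfp865, a zinc finger gene (0.94), and Chaf1a, a subunit of the chromatin assembly factor of DNA replication (0.94). Without S1 their r over 8 libraries was 0.92, 0.90, 0.92, 0.85 and 0.88. Chaf1a was at 152, 79.5 and 46.8 in S1 to S3, against 20.5, 23.0 and 9.76 in U1 to U3 and 23.6, 12.6 and 15.2 in C1 to C3, so it too was higher in every score 1 mouse. Eif2ak1 was at 612, 321 and 263 in S1 to S3, against 193 to 215 in the unstressed cKO group and 188 to 246 in control mice. The points share the libraries and the 3 groups, and a gene that was highest in S1 gains a high r from that library.

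Among the other 9 cytokinesis genes, Racgap1 had an r of 0.84 with Anln (0.65 without S1), Incenp 0.64 (0.38) and Rhoa 0.51 (-0.11), and the other 6 genes lay between -0.34 and 0.31. The 45 pairs among the 10 genes had a median r of 0.13, from -0.74 to 0.84, and 29 were above 0.

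**Figure D3:**
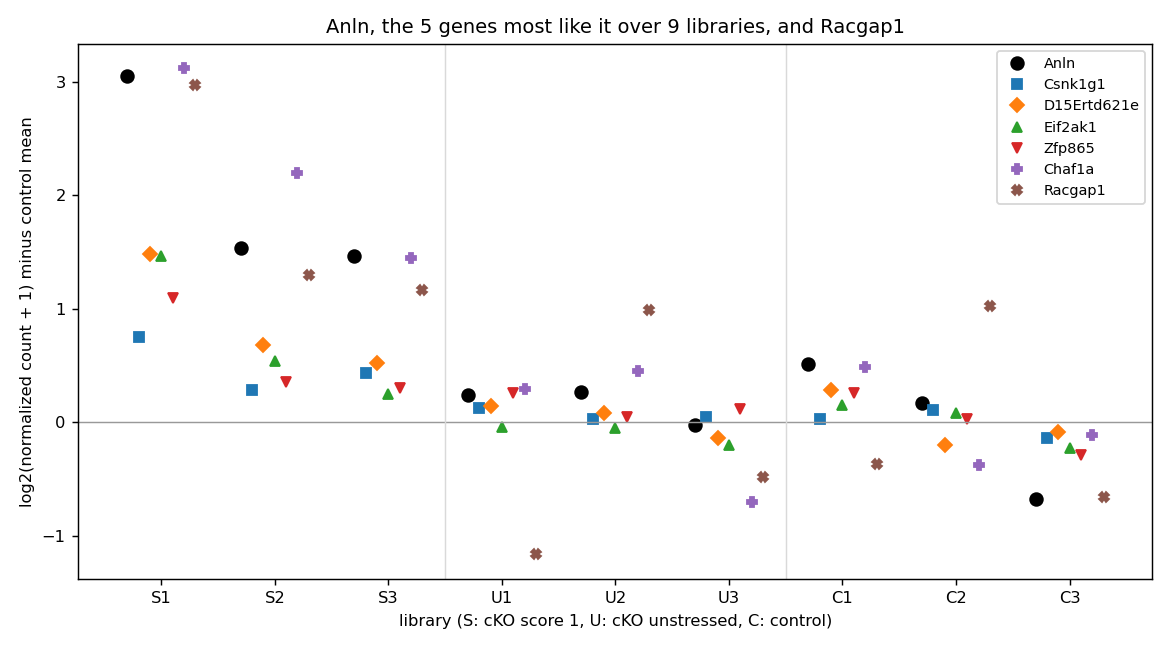
Log2(normalized count + 1) minus the control mean (vertical axis) in the 9 libraries (horizontal axis, S for cKO score 1, U for cKO unstressed, C for control) of Anln, the 5 genes most like it and Racgap1. All 7 genes are highest in S1, and Racgap1 parts from Anln in U2 and C2, where it had a normalized count of 28.9 and 29.6.

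Other genes of the central spindle and midbody mostly had higher mean levels in score 1 mice. Of 15 listed, 13 could be tested against control mice, and 12 had a log2 fold change above 0, with a median of 1.04 beside -0.01 for all genes. None passed limma, and at an unadjusted p under 0.05 there was 1 higher gene and no lower one, beside 589 higher and 443 lower among the 13454 genes tested. That gene was Ckap2l, which encodes a protein of mitotic spindle poles and midzone. It was at 84.8, 70.9 and 123 in S1 to S3, against 63.9, 49.3 and 12.4 in U1 to U3 and 4.73, 17.0 and 12.4 in C1 to C3. Score 1 mice were above all 6 others, and its log2 fold change against control mice was 3.04 ± 0.71 (standard error), with adjusted p-values of 0.307 from limma and 0.00389 from DESeq2. Kif20b, a kinesin of abscission, was at 47.8, 70.1 and 69.3 in S1 to S3 and at 61.6, 106 and 71.0 in U1 to U3, against 20.1, 68.2 and 11.4 in C1 to C3. Here the cKO groups overlapped and C2 lay within them. Kif18b and Arhgap11a were likewise highest in C2 among control mice at 39.5 and 35.9. In unstressed cKO mice the median of this list was 0.77, with 0 of 13 past limma and 3 higher at an unadjusted p under 0.05, beside 327 higher among all genes tested. In score 1 against unstressed cKO mice 8 of the 13 had a log2 fold change above 0, with a median of 0.49.

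Genes of the G2 and M phases summed to higher levels in score 1 mice, but none passed limma. Of 36 listed, 31 were tested, and at an unadjusted p under 0.05 against control mice 8 were higher and none lower (0 past limma, median 0.83), beside the 589 and 443 of all genes. In unstressed cKO mice 5 were higher and 0 lower (0 past limma, median 0.30), beside 327 and 234 of all genes. In score 1 against unstressed cKO mice 18 of the 31 had a log2 fold change above 0 and 13 below, with a median of 0.28. The summed normalized count of the list was 3919, 3907 and 3913 in S1 to S3, against 3319, 3002 and 2945 in U1 to U3 and 2084, 3332 and 2303 in C1 to C3. Mki67 alone held 808 of the mean sum of 3913 in score 1 mice. It held 452 of 3089 in the unstressed cKO group and 352 of 2573 in control mice. C2, with the highest sum of control mice, was also the control mouse with the most Racgap1 and Incenp. Mki67, whose protein Ki-67 coats mitotic chromosomes, was at 666, 814 and 944 in S1 to S3, against 512, 385 and 459.6 in U1 to U3 and 150.1, 613 and 293 in C1 to C3 (log2 fold change against control mice 1.41, standard error 0.37, adjusted p = 0.474 from limma). In the paper, Ki-67 staining of fixed hearts of this age showed no significant difference between cKO and control mice. It also reports similar shares of diploid and tetraploid cardiomyocyte nuclei in the 3 groups. Staining of protein and nuclear RNA are different measures. Aspm, a spindle pole gene, was at 269, 163 and 516 in S1 to S3, against 119, 111 and 125 in U1 to U3 and 94.5, 123 and 116 in C1 to C3. Its log2 fold change against the 6 other mice was 1.30 ± 0.33 (standard error), with adjusted p-values of 0.366 from limma and 0.00905 from DESeq2, and its highest library was S3, not S1 as for Anln.

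Top2a, the topoisomerase of dividing cells, was at 233, 210.3 and 104 in S1 to S3, against 178, 68.0 and 77.2 in U1 to U3 and 43.7, 92.4 and 86.5 in C1 to C3 (log2 fold change against control mice 1.28, standard error 0.48, adjusted p = 0.580 from limma). Ndc80, a kinetochore gene, was at 5.41, 23.9 and 10.3 in S1 to S3 and at 43.4, 20.4 and 3.55 in U1 to U3. It was listed at 0 in C1 and C2 and at 0.95 in C3, which is 1 read, so no fold is given.

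The machinery of the ring and of abscission had medians closer to that of all genes. Of 27 genes of the contractile ring and RhoA pathway, 0 passed limma against control mice, and at an unadjusted p under 0.05 none was higher and 1 was lower, with a median of 0.05. The lower gene was Ppp1r12a, the targeting subunit of myosin phosphatase, at 2901, 2076 and 3271 in S1 to S3, against 2566, 2837 and 3028 in U1 to U3 and 3450.3, 4219 and 3606 in C1 to C3 (log2 fold change -0.47, standard error 0.20, adjusted p = 0.622 from limma). Diaph1, a formin that RHOA activates, was at 536 in S1 but at 215 and 151 in S2 and S3, against 173 to 235 in the unstressed cKO group and 125 to 190.2 in control mice. Myl12a and Myl9, light chains of nonmuscle and smooth muscle myosin, had log2 fold changes of -0.74 (standard error 0.43) and 0.66 (standard error 0.39). Of the septins, which bind anillin, 9 of 13 were tested, all 9 had a log2 fold change above 0 with a median of 0.33, and 1 was higher at an unadjusted p under 0.05. Sept8 was at 1594, 1056 and 1314 in S1 to S3, against 983, 856 and 856 in U1 to U3 and 838, 891 and 943 in C1 to C3, which gave 0.55 ± 0.22 (standard error) on the log2 scale with an adjusted p of 0.596 from limma. Score 1 mice did not overlap with the others for this gene. Sept5, Sept10 and Sept4 had log2 fold changes of 1.54, 1.14 and 0.48, with standard errors of 0.87, 0.85 and 0.51.

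Of 20 genes of abscission and the ESCRT complexes, 0 passed limma against control mice and 1 was higher at an unadjusted p under 0.05, with a median of 0.04. It was Ulk3, a kinase of the abscission checkpoint, at 179.5, 148 and 117 in S1 to S3, against 122, 76.5 and 75.4 in U1 to U3 and 61.4, 53.8 and 92.2 in C1 to C3 (log2 fold change 1.10, standard error 0.42, adjusted p = 0.580 from limma). Vps4b, Chmp6 and Chmp4b, of the ESCRT machinery that cuts the midbody, had log2 fold changes of -0.64, -1.50 and -1.02 (standard errors 0.37, 0.90 and 0.67). Of 22 regulators of mitotic gene transcription, 0 were past limma and 0 past an unadjusted p of 0.05, with a median of 0.14 against control mice. The 4 with the smallest p were E2f3 (0.64), Rbbp4 (-0.49), Rbl1 (1.33) and E2f4 (0.45), and Rbl1 stood out in S2, with 159 against 3.80 to 51.1 in the other libraries. Of 10 genes tied to cardiomyocyte nucleation or ploidy, 0 passed either limit, with a median of -0.09. Tnni3k, a cardiac kinase whose variants alter the share of mononuclear cardiomyocytes in mice, was at 1632, 2116 and 2609 in S1 to S3, against 2091, 2351 and 2266 in U1 to U3 and 2809, 2691 and 2616 in C1 to C3 (log2 fold change -0.38, standard error 0.20, adjusted p = 0.707 from limma). Ccng1, Lmnb2 and Lats2 had log2 fold changes of -0.86, 0.70 and 0.32 (standard errors 0.51, 0.46 and 0.35).

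**Figure D4:**
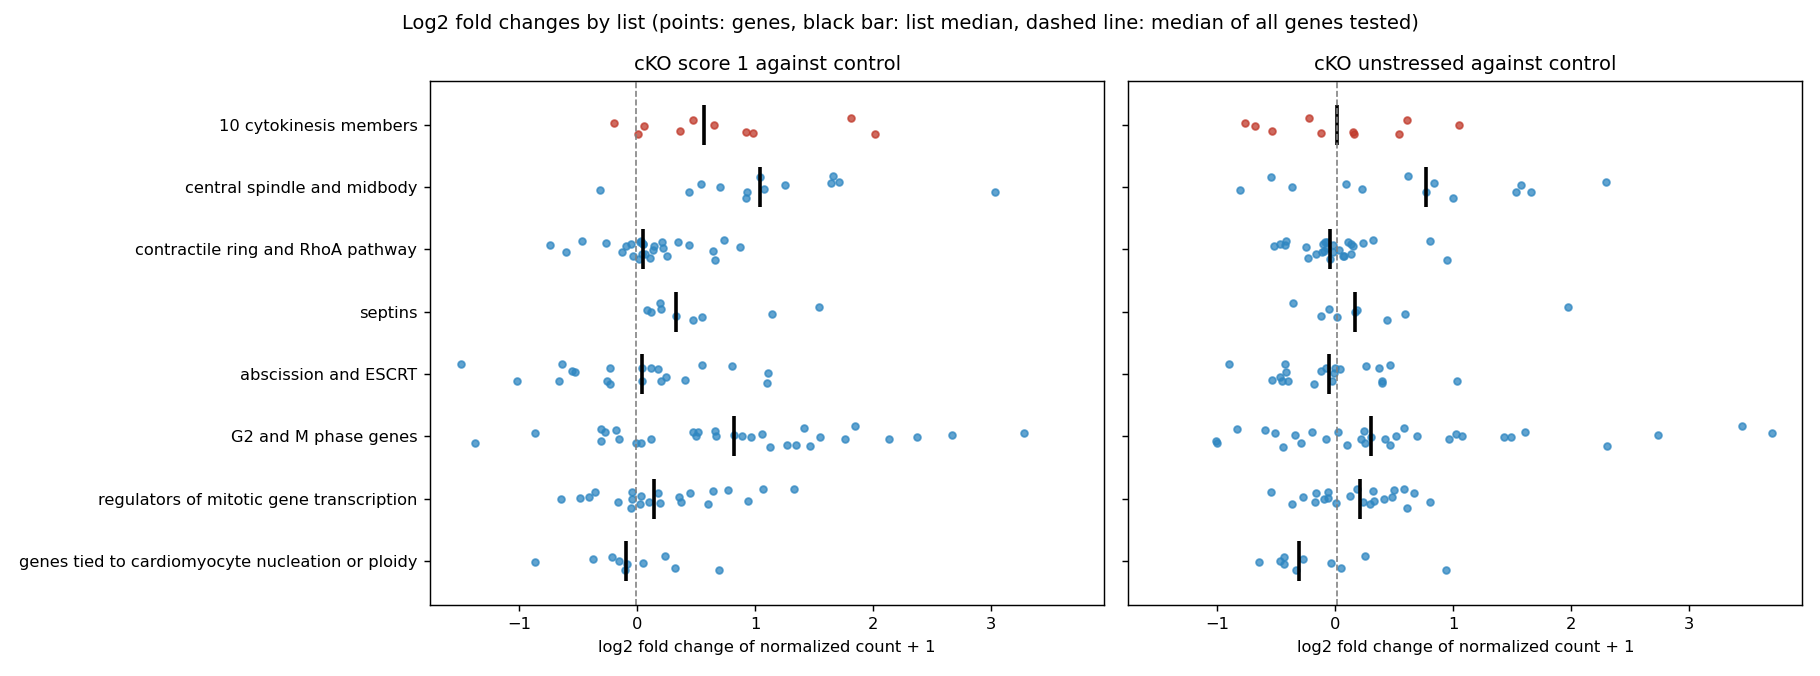
Log2 fold changes of normalized count + 1 (horizontal axes) of the 10 cytokinesis genes and of 7 further gene lists (rows) in score 1 against control mice and in unstressed cKO against control mice, with 1 point per gene, a black bar at the list's median and a dashed line at the median of all genes tested. In score 1 mice the medians of the central spindle list and the G2 and M phase list are 1.04 and 0.83, and those of the 5 remaining pathway lists lie between -0.09 and 0.33.

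Markers of other heart cells summed to far less than the 8 cardiomyocyte genes in every library. Those of fibroblasts and of smooth muscle cells exceeded the sum of the 10 cytokinesis genes in every library. Those of endothelial and endocardial cells exceeded it in every library but S1, with 1176 against 1627 there. The sum of 9 genes of endothelial and endocardial cells was 1176, 1377 and 1190 in S1 to S3, against 1382, 996 and 1010 in U1 to U3 and 968, 1077 and 902 in C1 to C3. All 9 had a log2 fold change above 0 in score 1 against control mice, with a median of 0.40 and 1 higher at an unadjusted p under 0.05 (Cdh5, log2 fold change 0.73). The sum of 7 fibroblast genes was 1848 to 3158 in score 1 mice, 2080 to 2654 in the unstressed cKO group and 1889 to 2194 in control mice, and that of 6 genes of smooth muscle cells and pericytes 3109 to 6748, 6523 to 8320 and 4980 to 7139 in the same groups. Acta2 alone held most of the mean sum of the smooth muscle list, with 2754 of 4854, 4982 of 7173 and 3939 of 5850 in these groups. In score 1 against control mice, 3 of the 7 and 3 of the 6 had a log2 fold change above 0, with Col1a1 higher (0.53) and Acta2 lower (-0.85) at an unadjusted p under 0.05. The 6 leukocyte genes summed to 100.1 to 129 in score 1 mice, 160 to 185 in the unstressed cKO group and 137 to 259 in control mice, and 0 of the 3 that could be tested had a log2 fold change above 0, with Cd68 lower (-1.41) at an unadjusted p under 0.05. Those of the epicardium (4 genes, mostly Wt1) summed to 59.9 to 153, 34.6 to 73.0 and 14.2 to 37.1. Wt1, a transcription factor of the epicardium and the only one of these genes that could be tested, was at 60.4, 139 and 59.0 in S1 to S3, against 69.6, 51.9 and 24.0 in U1 to U3 and 5.91, 18.8 and 37.1 in C1 to C3. Score 1 and control mice did not overlap, with a log2 fold change of 2.21 and a standard error of 0.69, and the gene passed an unadjusted p of 0.05 but not limma's adjustment (adjusted p = 0.474). Their part in the levels of Anln and the other genes was not tested.

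**Figure D5:**
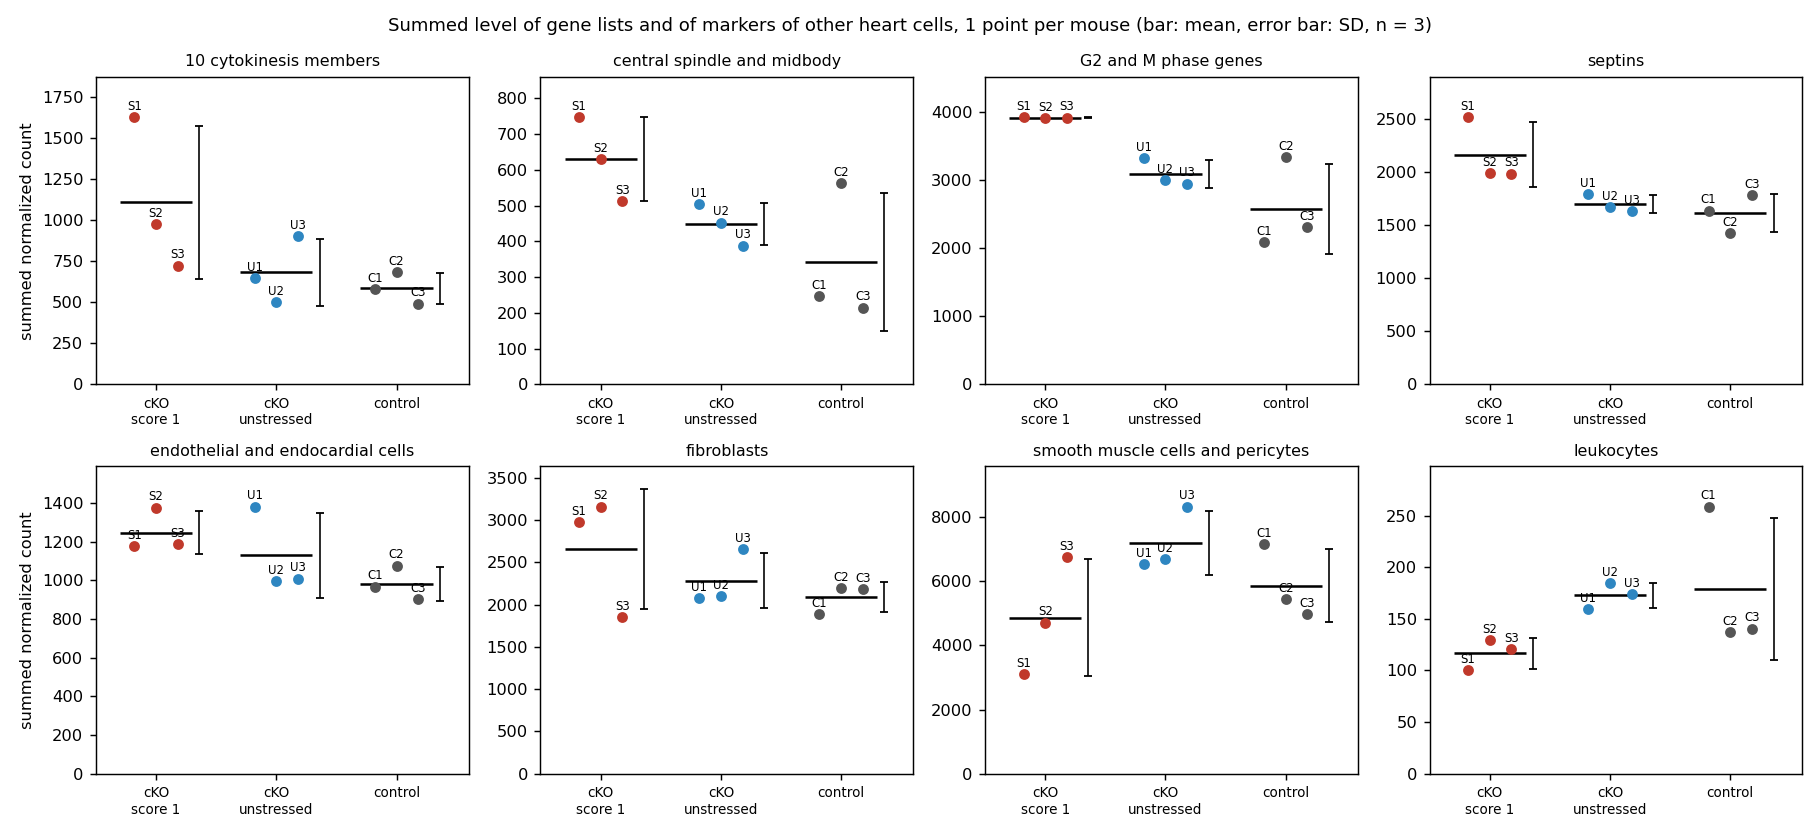
Summed normalized counts (vertical axes, from 0, separate scales) of the 10 cytokinesis genes, 3 lists of division genes and 4 lists of markers of other heart cells in cKO score 1, cKO unstressed and control mice, with 1 point per mouse, a bar at the mean and the SD beside it (n = 3). The G2 and M phase sum is 3907 to 3919 in score 1 mice and at most 3332 elsewhere, the sum of the 10 genes reaches 1627 in S1 alone, and the leukocyte sum is lowest in score 1 mice.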

How the data were processed

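Nuclear RNA of PCM-1-positive nuclei was amplified with Ovation RNA-seq V2 and sequenced as 50 bp single reads. The authors mapped reads to mm10 with STAR and deposited a signal, normalized counts, in which the reads of a gene are divided by the DESeq2 size factor of its library. The sources used here give no versions, annotation, counting program or strand setting. In each library 100% of the deposited values were whole multiples of 1 read (tolerance 0.001), so read counts were recovered for DESeq2 and edgeR. IDs were matched to GENCODE M21 for 40254 of 41128 genes.

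R 4.3.3 was used with limma 3.58.1, edgeR 4.0.16 and DESeq2 1.42.0. Genes were kept if 3 or more libraries reached a normalized count of 10, which left 13454. Their log2(normalized count + 1) entered limma with a variance trend, two-sided, and p-values were adjusted by Benjamini-Hochberg with a threshold of 0.05, with the 3 groups fitted together (6 residual degrees of freedom), or score 1 mice against the 6 others in a fit of 2 groups (7 degrees of freedom). DESeq2 (Wald test, groups compared) gave an adjusted p for 14937 to 15277 genes. Scripts were tested on simulated data.

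The 10 members, the 7 pathway lists and the 7 marker lists were chosen with earlier results of these data known. Named are the members, the 4 genes of each pathway list with the smallest p in score 1 against control mice and any past an adjusted threshold, the marker genes, and the 5 genes with the highest r with Anln. Cdh5 and Wt1 are markers, Myc was named after its values were seen, as were genes that overlap members. Alternatives were other pseudocounts, filters, normalizations, tools, fits and leaving out each library. The titles hold a separate mouse number for each library, and the paper describes 3 control mice. It counts the cKO mice as 5, but also describes 3 unstressed and 3 score 1 mice. The p-values measure only the spread between these libraries. The result of 1 marker list is not reported here.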

Additional observations from a re-analysis of the deposited data

How the results depend on the processing

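Anln kept its direction in score 1 mice in 15 of 15 settings against control mice, 15 of 15 against unstressed cKO mice and 17 of 17 against the 6 other mice, and in 13 of 15 in unstressed cKO against control mice. Without 1 library at a time its log2 fold change ranged from 1.50 to 2.29, 1.34 to 2.13, 1.42 to 2.21 and -0.18 to 0.42 in these comparisons, and the median of the 10 genes from 0.28 to 0.91, 0.47 to 1.14, 0.26 to 1.02 and -0.32 to 0.22. Anln was chosen by its level in score 1 mice, so its direction and ranges in those comparisons are a description and support nothing. Low reads limit Kif20a, Aurkb, Racgap1 and Rhoa, with at most 10 reads in at least 1 library each.

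Counts of called genes depended on the setting. In score 1 against control mice, where limma called 0 genes, DESeq2 called 29 and a fit of only these groups 1, and 0 to 3 were called (3 without C1) when 1 library was left out. In unstressed cKO against control mice, with 0 by limma, DESeq2 called 9, a pseudocount of 5 gave 3, quantile normalization 2, the series as a covariate 4 and a fit of only these groups 4, and 0 to 0 without 1 library. In score 1 against unstressed cKO mice, with 0 by limma, DESeq2 called 27, and 0 to 5 were called (5 without S3) without 1 library. In score 1 mice against the 6 others, with 1 by limma, DESeq2 called 58, a pseudocount of 0.5 gave 0, a pseudocount of 5 gave 2, no filter 0, quantile normalization 0 and the series as a covariate 4, and 0 to 3 were called without 1 library (3 without U1 or S3, 0 without C1, C3, U3, S1 or S2). The cause of these shifts was not tested. Of the 10 cytokinesis genes, DESeq2 called 1, Anln, in each comparison with score 1 mice, and limma 0 without any library. Anln was chosen by its level in these mice, so this call is no test of it and supports nothing. Leaving out 1 library under DESeq2, a choice made after seeing the data, gave 0 to 1 of them against control mice (0 without S1 or C3) and against unstressed cKO mice (0 without S1 or U3) and 1 to 1 against the 6 others. No paired analysis was possible because replicate numbers follow accession order and pair no samples.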
